A study of Mus musculus with 55 samples.

Results

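Msln, Upk3b, Upk1b, Lrrn4, Wt1 and Gpm6a are genes of the mesothelium, the flat epithelium that covers the liver surface. They were described here in RNA-seq libraries of sorted mouse liver cells, because they stood among the more abundant transcripts of 2 sorts whose names do not mention mesothelium. These 6 genes were taken by symbol from the 24478 symbols of the deposited expression table, each represented by a single transcript row, the most abundant when averaged over the libraries. The genes were chosen by their FPKM levels in those 2 sorts, which were already known, so those levels are given below as a description, with no test between sorts and the rest of the liver.

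The study sorted 10 cell populations by flow cytometry from livers of C57B/L6 mice, either normal or after partial hepatectomy (PH), the removal of part of the liver that sets off regrowth. The populations were non progenitor ducts (NPD), Thy1 cells (Thy1), clonal biliary epithelial cells (cBEC), biliary epithelial cells (BEC), endothelial cells (EC), liver sinusoidal endothelial cells (LSEC), hepatic stellate cells (HSC), Kupffer cells (KC), blood cells and hepatocytes (HC). There were 55 libraries, 27 normal and 28 after PH, with 2 to 5 in a group and 2 in each NPD and Thy1 group. The labels give no age, sex, time after PH, gate or animal of origin, so the spread between replicates may be technical. The library titled PH cBEC replicate 1 carries a treatment tag of normal and is used here as titled. Levels are in FPKM, fragments per kilobase of transcript, scaled to the mapped fragments of the library. Depth is unknown, since the table holds no read totals.

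Mesothelial cells line the body cavities, secrete a lubricating fluid and arise in the embryo from cells that express the transcription factor WT1. In injured liver they are known to be able to give rise to stellate cells and fibroblasts. Mesothelin (Msln) and the uroplakins Upk3b and Upk1b are surface proteins and widely used markers of the layer, Lrrn4 encodes a leucine-rich repeat membrane protein, and Gpm6a encodes a membrane glycoprotein best known from neurons. In a bulk library of sorted cells, fewer cells of a type and less RNA per cell cannot be told apart.

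The 6 transcripts lie on 5 chromosomes. In the mouse build mm9 of the deposited table, counted from 1, Msln (NM_018857) spans chr17:25885558-25891272 on the minus strand and Upk3b (NM_175309) chr5:136514366-136520863 on the plus strand. Upk1b (NM_178924) spans chr16:38773297-38800316 on the minus strand, and Gpm6a (NM_001253754) chr8:55864787-56146231 on the plus strand. Lrrn4 (NM_177303, chr2:132694252-132706598, minus strand) and Wt1 (NM_144783, chr2:104966686-105013771, plus strand) share a chromosome but lie far apart. Each interval is a whole transcript, exons and introns included. Gpm6a had 3 rows in the table, and the other 5 genes 1 row each.

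Since the genes had like profiles over the populations, the 250 bases before their starts are shown for the 3 genes that have an entry in the RefSeq promoter table (GRCm38.p6), written on the strand of the gene. Lrrn4 lies at chr2:132880863-132881112 (minus strand) in that build, Upk3b at chr5:136038246-136038495 (plus strand) and the first of the pair of Gpm6a windows at chr8:54779184-54779433 (plus strand). Capitals mark GGAATG or its complement CATTCC, the core letters bound by TEAD transcription factors.
Lrrn4: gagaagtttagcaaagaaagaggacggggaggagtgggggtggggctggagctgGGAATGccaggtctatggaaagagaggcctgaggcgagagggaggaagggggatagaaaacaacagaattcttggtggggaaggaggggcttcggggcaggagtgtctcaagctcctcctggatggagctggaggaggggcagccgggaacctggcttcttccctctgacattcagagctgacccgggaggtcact
Upk3b: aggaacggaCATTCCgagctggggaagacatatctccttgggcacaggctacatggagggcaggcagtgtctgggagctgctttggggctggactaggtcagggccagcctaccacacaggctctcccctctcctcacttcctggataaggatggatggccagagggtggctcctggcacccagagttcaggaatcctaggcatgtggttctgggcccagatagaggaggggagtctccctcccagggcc
Gpm6a: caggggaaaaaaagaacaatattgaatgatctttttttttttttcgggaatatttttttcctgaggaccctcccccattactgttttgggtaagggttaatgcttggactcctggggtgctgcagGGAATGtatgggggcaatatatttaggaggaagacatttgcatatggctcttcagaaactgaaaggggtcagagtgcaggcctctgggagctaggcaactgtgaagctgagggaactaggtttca
The 6 letters lay 196 to 191 bases before the start in Lrrn4, 241 to 236 bases before it in Upk3b (on the opposite strand) and 125 to 120 bases before it in Gpm6a. The second Gpm6a window held none. Of 32851 promoter windows of the same length, 12.6% held these letters on either strand. GCGGGGGCG, a sequence bound by EGR1 and WT1, was in 2.57% of windows and in none of the 4 member windows on either strand, so no motif overlapped another there. These are matches of letters in a window, and no binding was measured.

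The 6 genes were most abundant in NPD, next in Thy1, and far lower in the other 8 populations, in normal liver and after PH. In normal NPD, Msln was at 2074 and 1548 FPKM, which placed it at rank 20 and rank 19 of all genes. Upk3b was at 1902 and 2151 FPKM and Gpm6a at 1230 and 1123 FPKM in the same libraries. These 3 genes were thus at 1123 FPKM or more in both normal NPD libraries. Upk1b was at 705.8 and 511.3 FPKM there, Lrrn4 at 349.2 and 462.3 FPKM, and Wt1, a transcription factor, at 112.6 and 133.8 FPKM.

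In normal Thy1, Msln was at 770.3 and 714.9 FPKM, Upk3b at 1005 and 480.0 FPKM, and Upk1b at 253.5 and 247.8 FPKM. Lrrn4 was at 239.7 and 84.38 FPKM there, Wt1 at 66.63 and 34.14 FPKM, and Gpm6a at 671.2 and 304.8 FPKM. The normal Thy1 libraries agreed closely for Msln and Upk1b and were wide apart for the other 4 genes, with replicate 1 above replicate 2 each time. As a percentage of the normal NPD mean, the 6 genes stood between 41.7% and 59.1% in replicate 1 and between 20.8% and 40.7% in replicate 2. Most of the 10 duct markers went the other way in these libraries. Epcam was at 5.781 FPKM in replicate 1 and 86.00 FPKM in replicate 2, Sox9 at 2.093 and 27.07 FPKM, and Spp1, a secreted protein of duct cells, at 244.4 and 4340 FPKM. Krt19 instead was higher in replicate 1 (390.1 against 328.5 FPKM), and Cftr differed little (6.319 and 7.090 FPKM). The part of duct cells in the spread between the Thy1 libraries was not tested.

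After PH the order of the populations was kept at the top. In NPD after PH, Msln was at 1420 and 1622 FPKM (rank 14 in both libraries), Upk3b at 921.0 and 1144 FPKM, and Upk1b at 753.3 and 860.4 FPKM. Lrrn4 was at 441.4 and 434.7 FPKM there, Wt1 at 119.4 and 120.9 FPKM, and Gpm6a at 467.0 and 472.3 FPKM. Gpm6a thus went from rank 26 and rank 29 in normal NPD to rank 94 and rank 97. In Thy1 after PH, Msln was at 613.6 and 398.6 FPKM, Upk3b at 334.0 and 211.9 FPKM, and Upk1b at 360.6 and 220.5 FPKM. Lrrn4 was at 140.5 and 88.56 FPKM there, Wt1 at 52.70 and 31.10 FPKM, and Gpm6a at 197.2 and 111.4 FPKM. Replicate 1 was again the higher Thy1 library for all 6 genes.

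**Figure D1:**
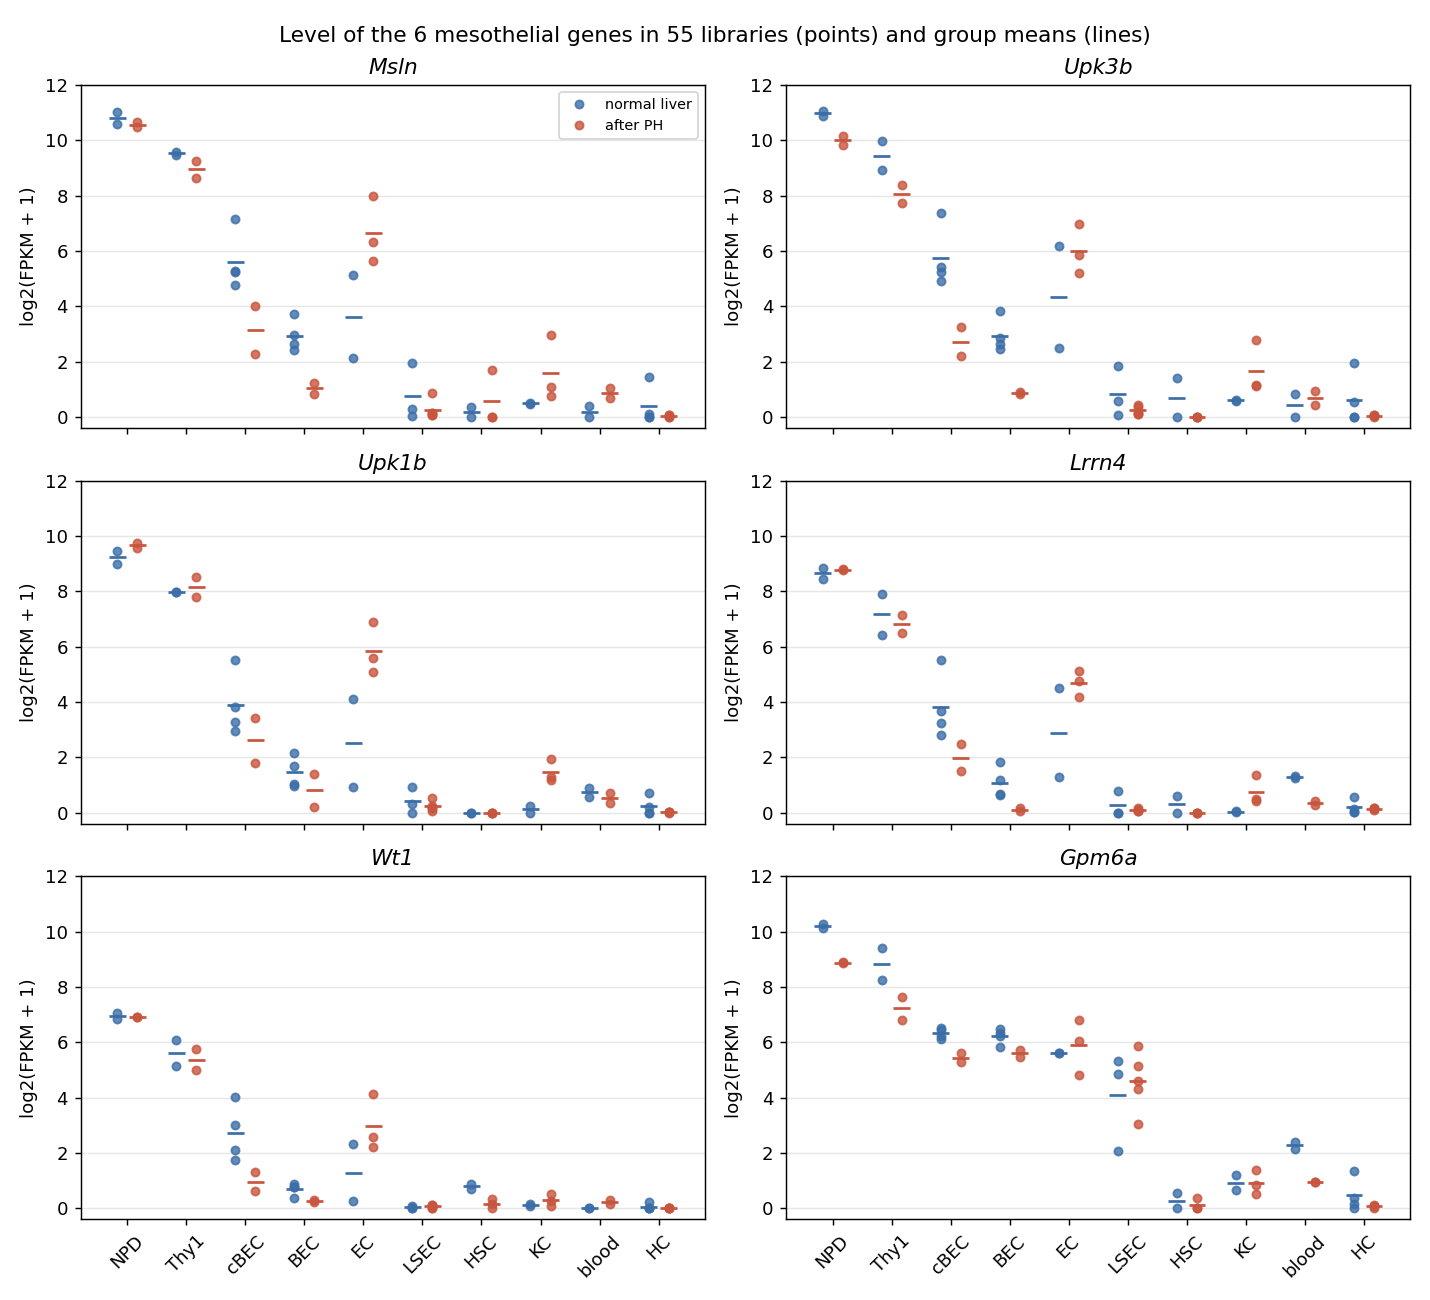
Level of each gene as log2(FPKM + 1) in every library, by population (x axis), with normal liver in blue, PH in red and a line at each group mean of log2 values. NPD and then Thy1 hold the highest values of all 6 genes, and Gpm6a is the member with the highest values in BEC and LSEC.

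The lowest NPD or Thy1 library exceeded the highest library of any other population for each of the 6 genes under each treatment. The genes were chosen by their levels in NPD and Thy1, so nothing is read from this separation. It was not counted over all genes. In normal liver that highest library was cBEC replicate 1 for all 6 genes, with Msln at 142.5 FPKM and Upk3b at 165.1 FPKM. The lowest NPD or Thy1 library was 1.90 to 5.54 times as high in normal liver. After PH the highest other library was EC replicate 1 for all 6 genes, with Msln at 254.3 FPKM. Gpm6a was at 111.0 FPKM there, against 111.4 FPKM in the lowest Thy1 library, so for Gpm6a the sorts after PH all but touched. For the other 5 genes that gap after PH was 1.57 to 2.65 times.

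Within the lower populations the genes were unevenly spread over libraries of the same group. The 4 normal cBEC libraries had Msln at 142.5, 26.41, 38.14 and 36.78 FPKM, and replicate 1 held 7.35% to 12.3% of the NPD mean over the 5 genes other than Gpm6a. The remaining 3 normal cBEC libraries held between 1.10% and 5.78%. In normal EC, Msln was at 3.390 and 34.12 FPKM, and these 5 genes stood at 0.147% to 0.354% of the NPD mean in replicate 1 and 1.88% to 5.30% in replicate 2. After PH the 3 EC libraries had Msln at 254.3, 49.18 and 78.49 FPKM, all above both normal EC libraries. In BEC, LSEC, HSC, KC, blood and HC the 5 genes stayed low, and Msln, for example, was at 4.319 to 12.09 FPKM in normal BEC and at 1.384 FPKM or less in BEC after PH.

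Gpm6a differed from the other 5 in where else it was found. Normal BEC had Gpm6a at 55.22 to 87.92 FPKM, which was 4.69% to 7.47% of the NPD mean, whereas the other 5 genes stood at 0.140% to 0.687% in those libraries. In LSEC after PH, Gpm6a ran from 7.357 to 57.56 FPKM with a median of 23.37 FPKM, and the highest of the other 5 genes in any of those libraries was at 0.0835% of its NPD mean. Over the 20 group means of log2(FPKM + 1), the 10 pairs among the other 5 genes correlated at 0.977 (Upk3b with Wt1) to 0.995 (Msln with Upk3b). The 5 pairs with Gpm6a correlated at 0.815 to 0.871. These are descriptions over 20 groups that share libraries between genes.

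**Figure D2:**
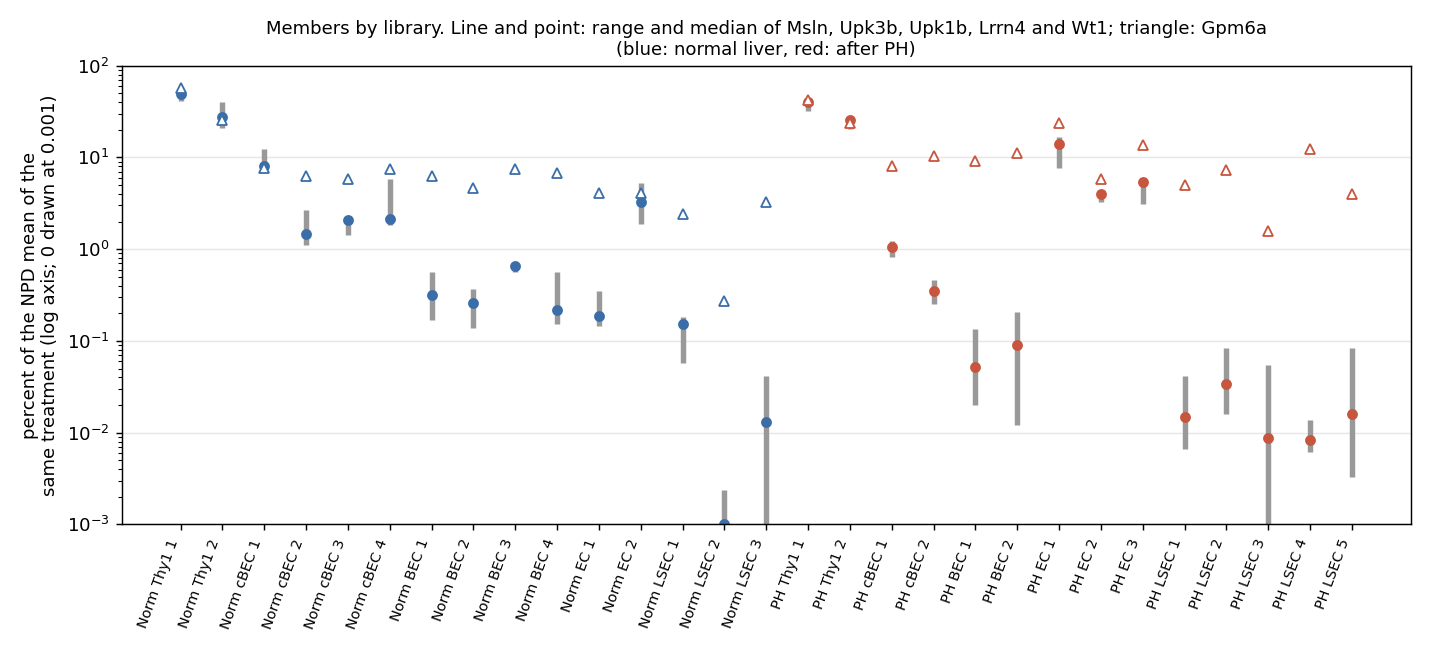
Members in each Thy1, cBEC, BEC, EC and LSEC library, as a percentage of the NPD mean of the same treatment on a log axis, with the range and median of 5 genes as a line and point and Gpm6a as a triangle (blue for normal liver, red after PH). Gpm6a stays between 4.69% and 11.1% in BEC, while the other 5 genes are under 1% there.

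The NPD label was checked against duct markers. Epcam, a surface marker of bile duct cells, was at 39.34 and 42.85 FPKM in normal NPD, against 320.9 to 412.0 FPKM in normal BEC. Sox9, a transcription factor of duct cells, was at 15.88 to 17.86 FPKM in normal NPD and 108.0 to 144.4 FPKM in normal BEC. The keratin genes went the other way, since Krt7 was at 547.2 to 641.2 FPKM in normal NPD and 103.5 to 238.8 FPKM in normal BEC. Summed over 10 duct markers, keratins included, NPD held 2628 to 3849 FPKM in normal liver and 3991 to 4802 FPKM after PH. This sum was 15088 to 22016 FPKM in normal BEC and 10056 to 20200 FPKM in normal cBEC. The sum over 9 mesothelial markers, which include the members, was 7153 to 7607 FPKM in normal NPD and 4622 to 5264 FPKM after PH. The normal NPD libraries thus held Epcam and Sox9 well under the level of normal BEC, beside mesothelial genes among the highest of the library.

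Thy1, the surface protein that names the other sort, was at 85.74 and 376.8 FPKM in normal Thy1 and also at 74.58 and 86.53 FPKM in normal NPD. Of the 10 markers of portal fibroblasts, the fibroblasts around the portal veins, Dpt was at 610.2 to 1072 FPKM in normal Thy1 and 0.7943 to 6.373 FPKM in normal NPD. Mfap4 was at 112.3 to 135.0 FPKM against 0.9222 to 2.934 FPKM, and Col15a1 at 25.08 to 33.04 FPKM against 0.3175 to 0.5752 FPKM. These 3 genes were lower in NPD, and other genes of the list were not. Gas6 was at 1213 to 1358 FPKM in normal NPD and 715.6 to 788.9 FPKM in normal Thy1, and Cd34 (279.5 to 365.4 and 304.9 to 381.9 FPKM) and Eln (170.4 to 269.5 and 188.8 to 253.8 FPKM) overlapped between the sorts. Summed over the 10 fibroblast markers, normal NPD held 2110 to 2166 FPKM and normal Thy1 2794 to 2968 FPKM. After PH these sums were 1825 to 1934 FPKM in NPD and 885.4 to 2020 FPKM in Thy1. The 7 endothelial markers summed to 1052 to 1065 FPKM in normal Thy1, 1403 to 2756 FPKM in Thy1 after PH, and 48.43 to 171.0 FPKM over the 4 NPD libraries. In NPD most of that sum was Kdr. Of the 7 hepatocyte markers, Alb, Apoa1, Ttr, Serpina1c and Fgb were listed at 0 in all NPD and Thy1 libraries. All 7 were also listed at 0 in every normal BEC, EC, KC, LSEC and blood library, against a sum of 94698 to 101122 FPKM in normal HC. Whether a processing step set these zeros is not known, so they are not read as absence of hepatocyte RNA. The 7 Kupffer cell markers summed to 126.2 to 236.3 FPKM in normal NPD and 19.57 to 28.39 FPKM in NPD after PH. The part of these other cells in the members' levels and differences was not tested.

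**Figure D3:**
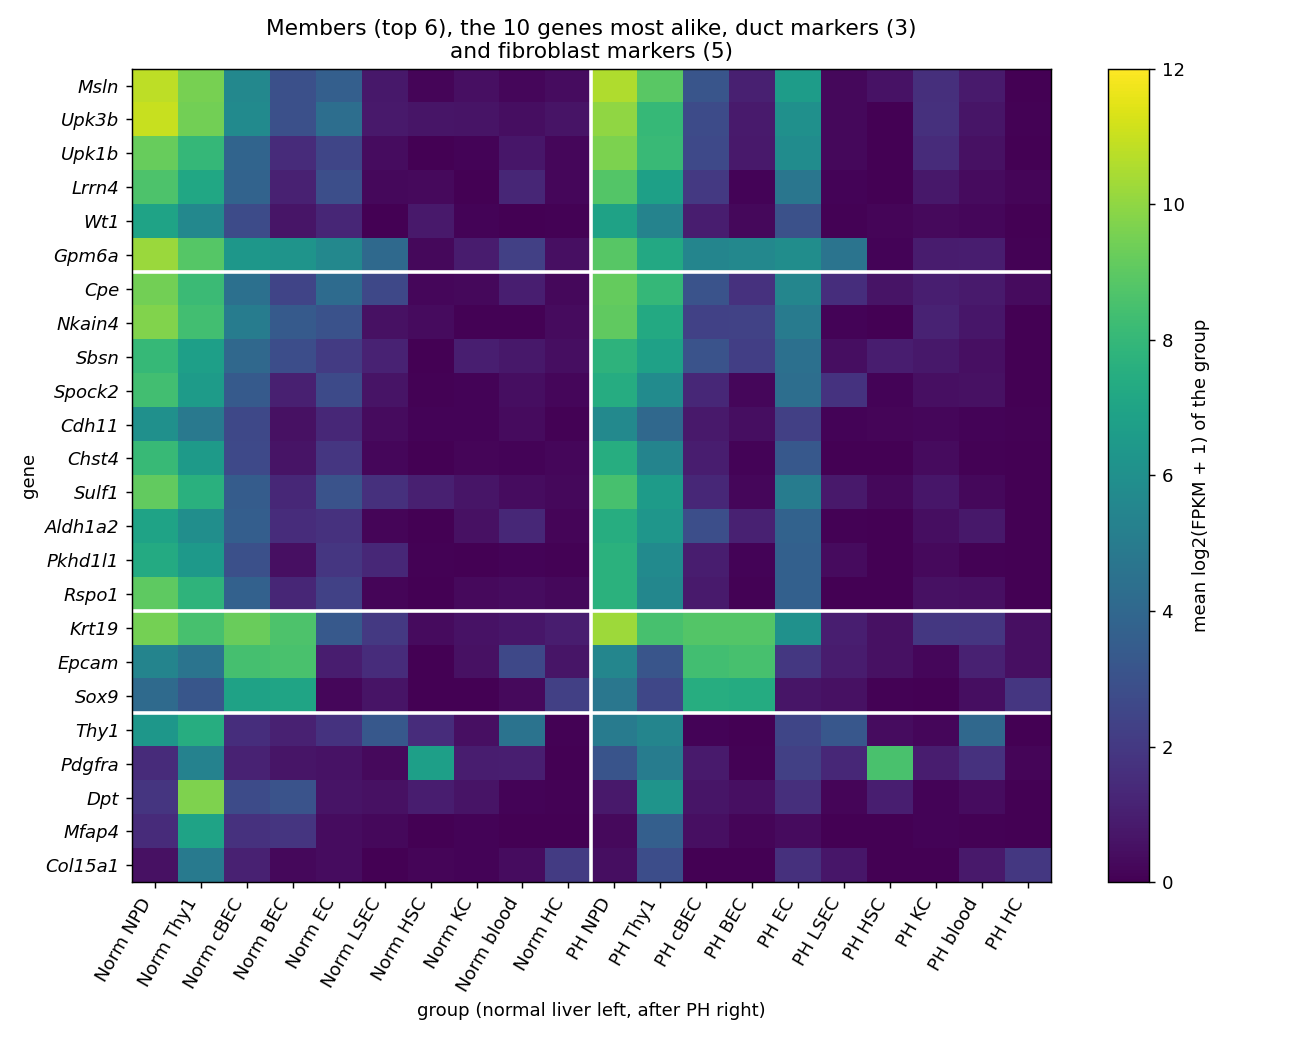
Mean log2(FPKM + 1) in the 20 groups for the 6 members, the 10 genes most alike, 3 duct markers and 5 fibroblast markers, with darker cells lower. The members and the genes most alike are bright in NPD and Thy1, Epcam and Sox9 in cBEC and BEC, and Dpt, Mfap4 and Col15a1 in Thy1. Normal NPD also held Krt19 at 899.8 and 593.0 FPKM and the Thy1 gene at 86.53 and 74.58 FPKM. The markers drawn are a part of each list, and Gas6, Cd34 and Eln are not among them.

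The response to PH was then tested within each population with limma on log2(FPKM + 1), Benjamini-Hochberg adjusted over all genes that passed a minimum of 1 FPKM, and a gene is said to have risen or fallen where its adjusted p was under 0.05. All 6 members passed that minimum in NPD and in Thy1. In NPD, Gpm6a fell after PH, with both PH libraries (467.0 and 472.3 FPKM) below both normal libraries (1123 and 1230 FPKM). Its log2 difference was -1.32 with a standard error of 0.20 and a limma adjusted p of 0.0185 (2 against 2 libraries). It was the 1 member of 6 that passed, against 15.2% of the 13024 genes tested, 9.65% higher and 5.51% lower.

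Upk3b missed the threshold in NPD. Its 2 PH libraries (921.0 and 1144 FPKM) lay below both normal ones (1902 and 2151 FPKM), and its log2 difference was -0.98 with a standard error of 0.23 and a limma adjusted p of 0.0505. Upk1b, the other uroplakin, lay higher in both PH libraries than in both normal ones, with a log2 difference of 0.42 (standard error 0.25) and a limma adjusted p of 0.29. Msln (-0.24), Lrrn4 (0.12) and Wt1 (-0.03) had overlapping groups and limma adjusted p of 0.548, 0.73 and 0.927. The Gpm6a call rested on both PH libraries. Without PH NPD replicate 1 its limma adjusted p was 0.284, without PH NPD replicate 2 it was 0.311, and none of the 6 members and none of the genes tested was then called (1822 and 1806 genes had an unadjusted p under 0.05). The difference itself stayed between -1.39 and -1.26 over all fits that left out 1 library.

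In Thy1 none of the 6 members passed in limma, against 0.00747% of 13389 genes, which is 1 gene, so the comparison could call almost nothing. At an unadjusted limma p under 0.05 there were 2 members, Gpm6a and Upk3b, beside 2417 of the 13389 genes. Gpm6a was at 671.2 and 304.8 FPKM in normal Thy1 and 197.2 and 111.4 FPKM after PH, a log2 difference of -1.60 with a standard error of 0.53 and a limma adjusted p of 0.234. Upk3b was at 1005 and 480.0 FPKM against 334.0 and 211.9 FPKM, a log2 difference of -1.38 with a standard error of 0.50 and a limma adjusted p of 0.257. Neither gene's groups overlapped. Markers of the sort differed between these libraries too. The Thy1 gene was at 54.65 and 33.37 FPKM in Thy1 after PH, against 27.25 and 33.72 FPKM in NPD after PH. In Thy1 after PH, Dpt was at 354.3 and 14.52 FPKM, Mfap4 at 40.32 and 2.774 FPKM and Col15a1 at 16.06 and 2.064 FPKM, with replicate 2 the lower each time. The duct marker sum was 875.4 to 5186 FPKM in normal Thy1 and 864.0 to 1353 FPKM after PH. The part of these shifts in the Thy1 differences was not tested. The other 4 members ran from -0.58 (Msln) to 0.17 (Upk1b) with limma adjusted p between 0.464 and 0.838.

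**Figure D4:**
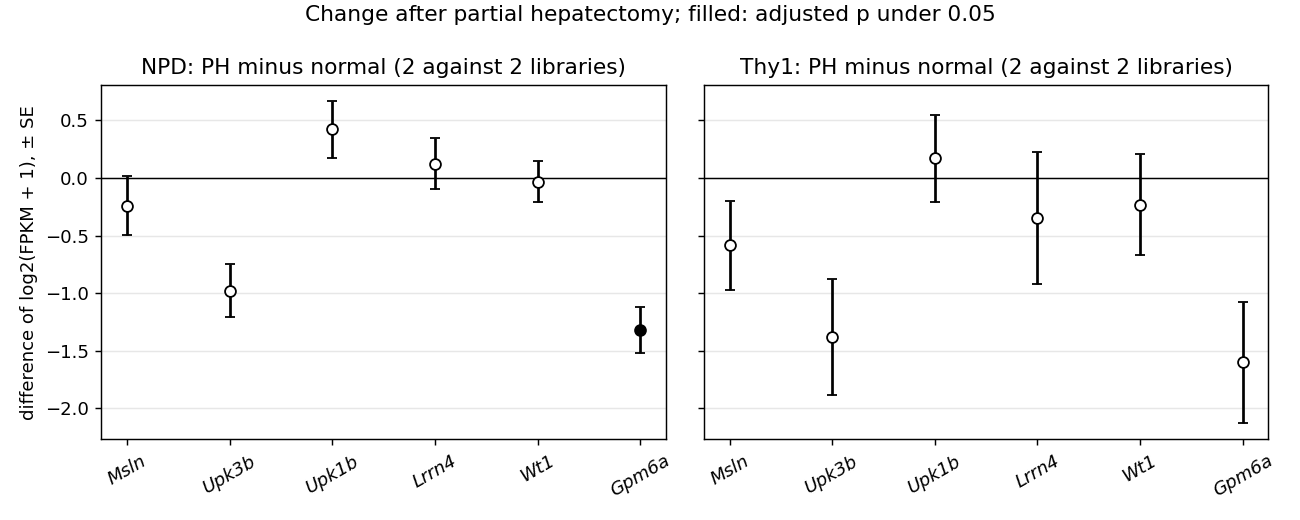
Difference of log2(FPKM + 1), PH minus normal, with its standard error, for the 6 members in NPD (left) and Thy1 (right), 2 against 2 libraries each. Gpm6a in NPD is the filled point, with a limma adjusted p under 0.05, at -1.32, and the largest falls in Thy1 are those of Gpm6a and Upk3b, neither of which passed.

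The response in NPD minus the response in Thy1 was between 0.20 (Wt1) and 0.47 (Lrrn4) on the log2 scale for the 6 members. None passed in limma (adjusted p of 1 for all 6, none with an unadjusted p under 0.05), against 1.31% of 16527 genes. Standard errors were 0.69 to 1.09, so differences of that size between the responses could not be detected.

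Levels were also compared between NPD and Thy1 themselves. In normal liver all 6 members were higher in both NPD libraries than in both Thy1 libraries, by 1.26 (Upk1b) to 1.54 (Upk3b) on the log2 scale. After PH all 6 were again higher in both NPD libraries, by 1.51 (Upk1b, standard error 0.27) to 1.96 (Lrrn4, standard error 0.25). The members were chosen by their levels in these 2 sorts, so the differences are a description. Nothing is read from the separation of the libraries or from the counts of calls. The separation was not counted over all genes. In normal liver 0 of 6 members were called in limma, beside 2.25% of 13386 genes. At an unadjusted limma p under 0.05 were 6 of 6, beside 1813 of these genes. After PH 6 of 6 were called, beside 7.87% of 13177 genes called higher and 16.6% called in either direction. That count was 0 in limma without PH NPD replicate 1 or without PH NPD replicate 2, with 6 of 6 at an unadjusted p under 0.05 in both fits, and 1 with no minimum on low values. The comparisons of NPD with Thy1 and of PH with normal share libraries.

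In the other 8 populations limma called a member 5 times. Each of these genes passed the minimum through the libraries of 1 treatment alone, so that the minimum favoured a difference in that direction. The values are therefore given as a description, and nothing is read from the calls. In BEC, 5 members passed the minimum and 2 were called lower after PH, beside 1.57% of 12851 genes called lower and 1.81% in either direction. Msln in BEC was at 6.874, 5.285, 12.09 and 4.319 FPKM in normal liver and 0.7820 and 1.384 FPKM after PH. Upk3b in BEC was at 6.272, 5.307, 13.17 and 4.448 FPKM and then 0.8902 and 0.7717 FPKM. The groups did not overlap for either gene, and both were far below their NPD level in every BEC library. Markers of other cells were lower in the same BEC libraries. The sum over 7 endothelial markers went from 28.22 to 112.6 FPKM in normal BEC to 0.9907 to 1.718 FPKM after PH, and that over 6 markers of sinusoidal endothelium from 78.41 to 313.8 FPKM to 0.6919 to 4.247 FPKM. Kupffer cell markers went from 128.8 to 355.7 FPKM to 43.93 to 50.36 FPKM, and 8 leukocyte markers from 4.393 to 16.77 FPKM to 0.1870 to 0.2020 FPKM. The part of these cells in the Msln and Upk3b values was not tested. Neither gene was called without Norm BEC replicate 1, without either PH BEC library, with quantile normalization, with no minimum or with all groups fitted at once.

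In blood cells 2 members passed the minimum, both through the normal libraries, and both were among the 64% of 12819 genes called there. Lrrn4 in blood was at 1.392 and 1.491 FPKM in normal liver and 0.3290 and 0.2277 FPKM after PH. Gpm6a in blood was at 3.438 and 4.259 FPKM and then 0.9564 and 0.9183 FPKM. The blood libraries differed in cell markers as well. Their Kupffer marker sum went from 663.3 to 968.5 FPKM to 9822 to 17182 FPKM, the leukocyte sum from 5325 to 5680 FPKM to 1094 to 2298 FPKM and the sinusoidal endothelial sum from 705.5 to 804.1 FPKM to 2454 to 5465 FPKM. In KC 4 members passed the minimum and 36.8% of 11835 genes were called. Upk1b in KC, which passed through the PH libraries, was at 0.1887 and 0 FPKM in normal liver and 2.861, 1.247 and 1.452 FPKM after PH. The sinusoidal endothelial sum in KC went from 3240 to 4470 FPKM to 303.2 to 526.4 FPKM, and the Kupffer sum from 12597 to 14022 FPKM to 28063 to 29159 FPKM. The part of these shifts in the blood and KC values was not tested. None of these 3 genes was called with all groups fitted at once, nor without either normal library of its population.

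No member passed in cBEC, EC or LSEC. In cBEC, where 0.0681% of 13225 genes were called, the 6 log2 differences in limma ran from -3.01 (Upk3b, adjusted p 0.37) to -0.88 (Gpm6a, adjusted p 0.287). At an unadjusted limma p under 0.05 were 4 of the 6, beside 1346 of the 13225 genes. Upk3b in cBEC was at 165.1, 29.12, 41.92 and 36.87 FPKM in normal liver and 8.501 and 3.644 FPKM after PH. The value of 8.501 FPKM was from PH cBEC replicate 1, the library with a treatment tag of normal, so the treatment of that library is uncertain. In cBEC the endothelial marker sum was 2.881 to 153.5 FPKM in normal liver and 3.213 to 3.235 FPKM after PH, and its part was not tested. The cBEC groups did not overlap for Upk3b, and without Norm cBEC replicate 1 its difference was -2.46 with a limma adjusted p of 0.0276. In EC, where 0.0249% of 12064 genes were called, Upk1b was at 0.8925 and 16.40 FPKM and then 119.0, 32.54 and 47.42 FPKM, a log2 difference of 3.34 with a standard error of 0.98 and a limma adjusted p of 0.342. EC differences were thus opposite in sign to those in cBEC, which was not tested as such. In EC 2 of the 6 members, Msln and Upk1b, had an unadjusted limma p under 0.05, beside 1297 of the 12064 genes. The duct marker sum in EC went from 46.29 to 57.28 FPKM to 169.6 to 323.4 FPKM. The sum over 6 smooth muscle markers went from 8.845 to 10.97 FPKM to 31.79 to 58.67 FPKM. Sums over the other marker lists overlapped between the treatments in EC. The part of these cells in the EC differences was not tested. In LSEC only Gpm6a could be tested (0.51, limma adjusted p 0.736), against 8.46% of genes called. No member passed the minimum in HSC or HC.

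The proportion of the 2 uroplakin genes to each other differed between normal and PH libraries, while neither gene passed in NPD or Thy1. To set the genes against each other within a library, ratios were taken in the 18 libraries with Msln at 10 FPKM or more. This ratio was chosen after the values had been seen and has no test. Upk3b to Upk1b was 2.70 and 4.21 in normal NPD, 3.97 and 1.94 in normal Thy1, 1.22 and 1.33 in NPD after PH and 0.926 and 0.961 in Thy1 after PH. In the 6 normal libraries of other populations, mostly cBEC, it was 2.85 to 4.80. In the 4 after PH, mostly EC, it was 0.862 to 1.19, so the populations differed between the treatments. The value of 0.862 was from PH cBEC replicate 1, the library with a treatment tag of normal. Over all populations the 10 normal libraries ran from 1.94 to 4.80 (median 3.90). The 8 PH libraries ran from 0.862 to 1.33 (median 1.08), with no overlap. Lack of overlap was not counted over other pairs of genes, here or for the ratios to Msln. With Msln at 1 FPKM or more, the 16 normal libraries ran from 1.94 to 6.04 and the 13 PH libraries from 0.465 to 2.05, and the groups then overlapped.

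Upk1b to Msln was 0.329 to 0.347 in the 4 normal NPD and Thy1 libraries and 0.530 to 0.588 in the 4 after PH. Gpm6a to Msln was 0.426 to 0.871 and then 0.279 to 0.329 in the same libraries. Neither of these ratios overlapped between treatments there, though both did when the other populations were added. Upk3b to Msln (0.671 to 1.39 in normal liver and 0.532 to 0.706 after PH), Lrrn4 to Msln (0.118 to 0.311 and 0.222 to 0.311) and Wt1 to Msln (0.0478 to 0.0865 and 0.0746 to 0.0859) overlapped in those NPD and Thy1 libraries.

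**Figure D5:**
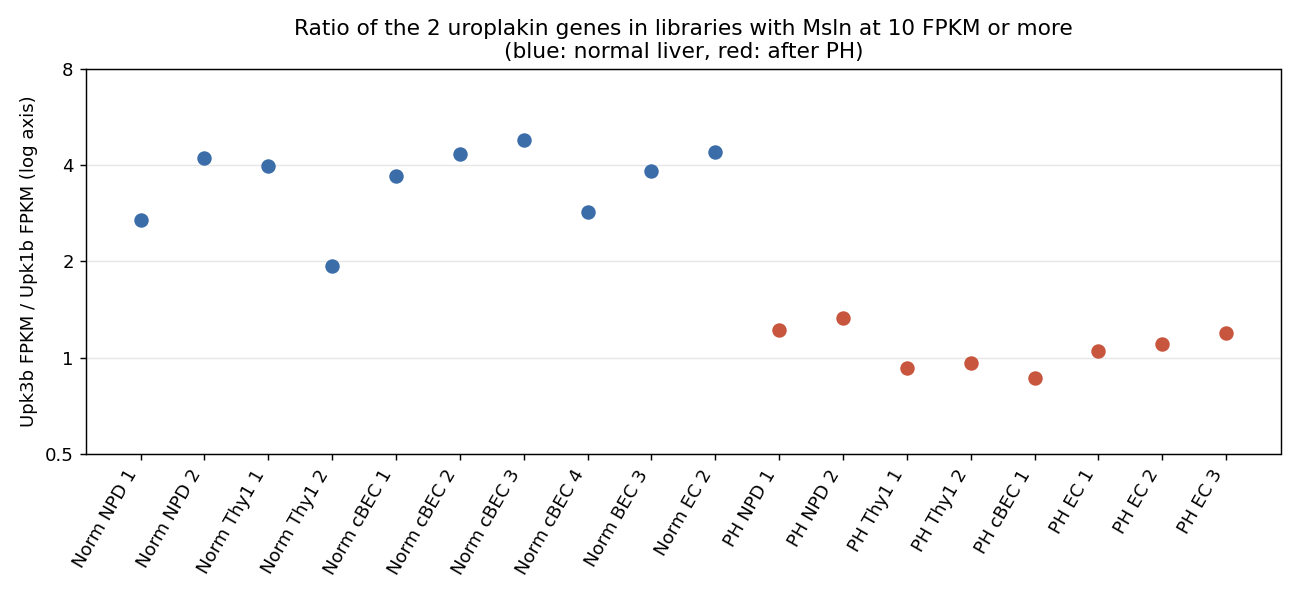
Ratio of Upk3b to Upk1b FPKM on a log axis in the 18 libraries with Msln at 10 FPKM or more, with each point 1 library, blue for normal liver and red after PH. All 10 normal libraries lie at 1.94 or above and all 8 PH libraries at 1.33 or below. The populations drawn differ between the treatments, and the lowest PH point is cBEC replicate 1, which carries a treatment tag of normal.

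Of 34 other mesothelial genes, 31 could be tested in NPD, and limma called 4 higher and 6 lower after PH, beside 9.65% of all genes called higher and 5.51% lower. Like every call in NPD, those of this and the following lists were lost without either PH NPD library. Their median log2 difference was -0.28, against 0.09 over all genes tested. Among the 6 that fell, Efemp1, an extracellular matrix glycoprotein, went from 2500 and 2741 FPKM to 659.0 and 703.6 FPKM (-1.94, adjusted p 0.0106). Igfbp6, a binding protein for insulin-like growth factors, went from 2955 and 2569 FPKM to 631.8 and 856.3 FPKM (-1.90, adjusted p 0.0158). Both groups were well apart. Rspo1, a secreted enhancer of Wnt signalling, went from 509.6 and 540.5 FPKM to 191.7 and 219.0 FPKM (-1.35, adjusted p 0.0169). The water channel gene Aqp1, which endothelium also expresses, went from 1276 and 1248 FPKM to 295.1 and 429.2 FPKM (-1.82, adjusted p 0.0171), while the endothelial marker sum in NPD went from 152.1 to 171.0 FPKM to 48.43 to 58.07 FPKM. Most of that sum was Kdr, at 108.3 and 163.7 FPKM in normal NPD and 40.85 and 54.09 FPKM after PH. Each other endothelial marker was at 15.34 FPKM or less in normal NPD and at 2.121 FPKM or less after PH. The part of endothelial cells in the Aqp1 difference was not tested.

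The 4 that rose were Has1, Krt8, Krt18 and Cdh2. Has1, a hyaluronan synthase, went from 36.83 and 35.52 FPKM to 140.9 and 242.5 FPKM (2.32, limma adjusted p 0.0138). The keratin genes Krt8 (2.02, limma adjusted p 0.0212) and Krt18 (1.63, limma adjusted p 0.0353), which duct cells express as well, rose beside a duct marker sum that went from 2628 to 3849 FPKM to 3991 to 4802 FPKM. The part of duct cells in the keratin differences was not tested. Cdh2, N-cadherin, rose by 1.13 (limma adjusted p 0.0482) at levels of 1.166 to 4.202 FPKM. With no minimum on low values, Krt8 (0.0613), Krt18 (0.0838) and Cdh2 (0.0762) missed the threshold on limma's adjusted p. Cdh2 also missed it in limma with a pseudocount of 0.1 (0.0551), quantile normalization (0.0508), upper-quartile scaling (0.0504) and a replicate block (0.0505). With all groups fitted at once, 7 of these 8 genes lost their call in limma, with an adjusted p of 0.0516 (Efemp1) to 0.243 (Krt18), and Has1 kept it. In Thy1 none of the 31 genes tested passed in limma, and their median was -0.22, against -0.06 over all genes.

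The remaining lists were small. Of 13 genes of retinoid handling, 11 were tested in NPD, with 3 called higher and 2 lower in limma, beside 9.65% and 5.51% of all genes. The 3 called higher passed the minimum only through the PH libraries, which favoured that direction, so nothing is read from their count. Rarg, a retinoic acid receptor, fell from 44.29 and 49.00 FPKM to 28.22 and 29.35 FPKM (-0.68, limma adjusted p 0.0443). Cyp26a1, which degrades retinoic acid, was listed at 0 in both normal NPD libraries and at 8.982 and 4.531 FPKM after PH (limma adjusted p 0.0153). Stra6, a retinol transporter (1.81, adjusted p 0.0227), and Cyp26b1, a relative of Cyp26a1 (1.57, adjusted p 0.04), were called as well and reached at most 6.147 FPKM. With no minimum, Stra6 (0.0543), Cyp26b1 (0.0813) and Rarg (0.0764) missed the threshold on limma's adjusted p. Cyp26b1 also missed it in limma with a pseudocount of 0.1 (0.0544), and Rarg with upper-quartile scaling (0.0848) and a replicate block (0.0519). Aldh1a2, which makes retinoic acid, was at 137.9 and 109.5 FPKM and then 180.0 and 175.5 FPKM in NPD (0.53, limma adjusted p 0.127).

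Of 16 genes linked to the passage from mesothelial to mesenchymal cells, 15 were tested in NPD, and limma called 2 higher (Fn1 and Cdh2) and 1 lower (Tgfb3), a share close to the 15.2% of all genes called in either direction. Fn1, fibronectin, went from 54.06 and 61.05 FPKM to 191.1 and 109.6 FPKM (1.32, adjusted p 0.0452). Tgfb3, a growth factor of the TGF-beta family, went from 116.3 and 122.1 FPKM to 43.60 and 44.40 FPKM (-1.42, adjusted p 0.0107). Among 10 WT1 partners and related factors, all tested, 2 were called, again close to that share, with Tead2 higher (1.35, limma adjusted p 0.0256) and Wwtr1, a coactivator of TEAD factors, lower (-0.65, limma adjusted p 0.0455). With no minimum, Fn1 (0.101), Tead2 (0.0588) and Wwtr1 (0.0752) missed the threshold on limma's adjusted p. Fn1 also missed it in limma with quantile normalization (0.0596), and Wwtr1 with upper-quartile scaling (0.0618) and a replicate block (0.0595). With all groups fitted at once, Fn1, Wwtr1, Cyp26b1 and Rarg lost their call in limma (adjusted p 0.341, 0.326, 0.27 and 0.173). Of the 5 uroplakins only Upk3b and Upk1b could be tested, and Upk1a did not exceed 1.227 FPKM in any NPD library.

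All 17 genes of DNA replication and division were tested in NPD, and limma called 12 higher and none lower after PH, beside 9.65% of all genes called higher, with a median log2 difference of 2.51 against 0.09 over all genes. Of these 12, 8 passed the minimum in both groups, and 4, Rrm2 among them, only through the PH libraries. The 5 genes not called also passed only through the PH libraries. For such genes the minimum favoured a rise, so nothing is read from the count of 12 or from the median. Mcm2, a subunit of the replicative helicase, went from 4.081 and 3.962 FPKM to 49.04 and 49.35 FPKM (3.32, adjusted p 0.00631). Rrm2, a subunit of ribonucleotide reductase, went from 3.102 and 0.7168 FPKM to 43.60 and 26.47 FPKM (3.72, adjusted p 0.0152), and with no minimum its limma adjusted p was 0.0513. These genes rose in libraries where Msln, Lrrn4 and Wt1 had overlapping groups. In Thy1, Mcm2 was at 4.635 and 7.336 FPKM and then 28.46 and 26.30 FPKM, and none of the 15 list genes tested passed in limma. Which cells of the NPD libraries carried the replication genes cannot be told from bulk values.

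The genes most alike to the mean pattern of the 6 members were sought among the 11892 genes that reached 10 FPKM in the mean of some group, by Pearson correlation over the 20 group means. The 10 highest were Cpe (0.991), Nkain4 (0.991), Sbsn (0.986), Spock2 (0.986), Cdh11 (0.985), Chst4 (0.985), Sulf1 (0.984), Aldh1a2 (0.984), Pkhd1l1 (0.984) and Rspo1 (0.982), and 51 genes reached 0.95. Group means of Cpe, a carboxypeptidase that processes peptide hormones, were 697 and 568 FPKM in NPD (normal, then PH), 293 and 258 FPKM in Thy1 and at most 63.4 FPKM elsewhere. Nkain4, a partner of the sodium pump, had means of 858 and 541 FPKM in NPD and 327 and 157 FPKM in Thy1. Sulf1, which removes sulfate from heparan sulfate, had means of 555 and 373 FPKM in NPD and 208 and 102 FPKM in Thy1. The 10 genes shared the order of NPD above Thy1 with the members under both treatments. They were picked for their likeness to the members' pattern, so nothing is read from this order. For single members, the 2 most alike were Upk3b and Upk1b for Msln, Msln and Igfbp6 for Upk3b, Lrrn4 and Msln for Upk1b, Upk1b and Chst4 for Lrrn4, and Chst4 and Cdh11 for Wt1. Gpm6a stood apart, with Cav1 (0.965), the gene of caveolin, and Cd200 (0.939). Cav1 fell in NPD after PH by 1.39 on the log2 scale (limma adjusted p 0.0205, and 0.0514 with no minimum), beside the fall of Gpm6a.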

How the data were processed

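RNA was taken into TRIzol from sorted cells and made into Illumina libraries, per the labels. Reads were processed with CASAVA 1.8.2 and Bowtie 1.0.0 against mm9, per the submitters' processing notes. The authors deposited FPKM values per RefSeq transcript, and the step from reads to FPKM is not given in the sources used here. All 55 sample columns were matched by title. Each symbol was represented by its row with the highest mean. Table starts were counted from 0 (in 9633 of 11312 single transcripts, end minus start gave the RefSeq length), so 1 was added.

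Tests used limma 3.58.1 in R 4.3.3 with a trend and robust variances on log2(FPKM + 1), a scale that understates changes of low genes. A gene was tested with at least 1 FPKM in as many libraries as the smaller group holds. PH was compared with normal in each population, and NPD with Thy1 under each treatment, in fits of the groups compared. The difference of responses was fitted over all 20 groups. The code was tested on simulated data. Alternatives were a pseudocount of 0.1, no minimum, quantile or upper-quartile scaling, the mean over a symbol's rows, a fit of other groups, a replicate block, and leaving out each library.

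The members and gene lists were chosen with earlier results of these data known. Of the list genes the text names up to 4 per direction and list called in NPD, the 10 genes most alike to the members' mean pattern and the 2 most alike to each member. The FPKM of all genes summed to 393620 to 762627 per library, and replicates correlated at 0.919 to 0.996 on the log2 scale. Muc16, on the lists, was not matched to a row and was not analysed here. Par4 is another name of Pawr, which was analysed under that symbol. Calb2 was listed at 0 in NPD and Thy1. A few other genes of the lists are not reported here.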

Additional observations from a re-analysis of the deposited data

Results flagged for a closer look

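Each group of 4 or 5 libraries was examined for 1 member at a time by Dixon's test, which chance passes in about 1 set in 20. Of 30 such sets, 29 had unequal values, and in these 8 values stood far from the rest. A first count, limited to sets whose highest value was at least 1 FPKM, held 15 sets and 6 of these values. That limit was dropped after its result was seen, since a single high library can bring a set in. Of these, 4 were in normal cBEC replicate 1, with Msln at 142.5 FPKM (the other libraries at 26.41 to 38.14 FPKM), Upk3b at 165.1 FPKM (29.12 to 41.92 FPKM), Upk1b at 44.75 FPKM (6.718 to 12.96 FPKM) and Lrrn4 at 44.46 FPKM (5.959 to 11.83 FPKM). A further 3 were in normal HC replicate 4, with Msln at 1.720 FPKM (0 to 0.09000 FPKM), Upk3b at 2.910 FPKM (0 to 0.4600 FPKM) and Wt1 at 0.1800 FPKM (0 in the others). Msln stood at 0.8223 FPKM in LSEC replicate 2 after PH (0.05004 to 0.1101 FPKM in the others). The 8 values are not independent, since they come from 3 libraries.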

How the results depend on the processing

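With 2 libraries in each NPD and Thy1 group, calls depended on single libraries. The members called in NPD after PH went from 1 to 2 with upper-quartile scaling and with the mean over a symbol's rows, to 0 with all 20 groups in a single fit, and ranged from 0 to 2 when each library was left out in turn. The second member was Upk3b. Members higher in NPD than Thy1 after PH went from 6 to 1 with no minimum on low values, to 2 in the fit of all groups, and from 0 to 6 when a library was left out. Over the other 8 populations, 5 calls became 3 with no minimum and 3 with quantile normalization, and ranged from 3 to 6 with a library left out. The members called in Thy1, in normal NPD against Thy1 and in the difference of responses were 0 in limma in all alternatives, with unadjusted counts of 2, 6 and 0 in the main analysis.

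Msln in NPD was 0.29 with quantile normalization, against -0.24. With a library left out, differences changed sign for Lrrn4 (-0.078 to 0.33) and Wt1 (-0.15 to 0.092) in NPD, for Lrrn4 (-1.10 to 0.40), Wt1 (-0.70 to 0.24) and Upk1b (-0.18 to 0.52) in Thy1, and for Upk3b (-0.13 to 0.94), Upk1b (-0.10 to 0.61), Lrrn4 (-0.27 to 1.22), Wt1 (-0.27 to 0.67) and Gpm6a (-0.29 to 0.85) in the difference of responses. None of these was called. The cause was not tested. With no minimum, Top2a (limma adjusted p 0.0916) lost its call in NPD, as did the genes named so in the report. Quantile normalization moved the median of all genes in NPD from 0.09 to -0.024.

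Counts over all genes moved too. In NPD 1974 genes became 648 with no minimum, 3688 without Norm NPD replicate 1, 4481 without Norm NPD replicate 2, and 0 without either PH library (1822 and 1806 at an unadjusted p under 0.05 in limma). In Thy1 1 gene became 1886 in the fit of all groups. For NPD against Thy1 after PH, 2182 became 879 with no minimum and 4113 without PH Thy1 replicate 1. The 216 genes of the difference of responses became 45 with a pseudocount of 0.1, 467 with no minimum, and 0 in limma over NPD and Thy1 alone. In cBEC, Msln (adjusted p 0.0301), Upk3b (0.00511) and Wt1 (0.0111), and in EC Msln (0.0183) and Upk1b (0.000772), passed in limma when all groups were fitted at once.

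Replicate numbers were not shown to pair libraries. Deviations of same-numbered NPD libraries correlated at 0.0887, of Thy1 libraries at 0.0318, of normal NPD and Thy1 libraries at -0.0881 and of PH libraries at 0.0405. With the replicate block, 1 member was called in NPD, 0 in Thy1 and 5 higher in NPD than Thy1 after PH (Upk1b was lost), 7 over the other 8 populations, and the genes called in Thy1 went from 1 to 485.

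The median ratio of Upk3b to Upk1b was 4.09 in normal and 1.10 in PH libraries with Msln at 1 FPKM or more and 3.69 and 1.05 at 100 FPKM or more, minimums chosen after seeing the data.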
